A study of Mus musculus with 12 samples.

Results

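Endothelial identity genes are the genes whose products mark the cells lining blood vessels. A set of 32 of them was followed in mouse hearts, chosen by gene symbol among the 54146 gene records of each count file. All 32 were found, and all 32 were among the 15477 genes that passed the filter on low counts. Polyadenylated RNA was sequenced with a strand-specific kit from whole-heart RNA of 12 libraries, 4 in each of 3 groups, 6 weeks after surgery. TAC KO hearts came from mice lacking Nron, a long noncoding RNA, that had undergone transverse aortic constriction (TAC), which narrows the aorta and loads the left ventricle with pressure. TAC WT hearts came from wild-type mice after the same constriction, and Sham WT hearts from wild-type mice after sham surgery. The labels give no knockout design, strain, age or sex, and no sham-operated knockout hearts were analysed here, so an effect of Nron loss that needs the constriction and one that does not cannot be told apart. Whether each library of a group is a separate animal is not stated in the labels, and the p-values describe variation among these libraries, which may be technical.

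Endothelial cells form the inner wall of every vessel, and in the heart most of them line the capillaries that run beside the cardiomyocytes. Their identity is held by transcription factors of the ETS family (Erg, Fli1) and the SOX family (Sox7, Sox17, Sox18), which switch on the genes of junction proteins, of growth factor receptors and of the nitric oxide synthase that relaxes vessels. In the heart these cells also pass fatty acids and water to the muscle and answer pressure load by vessel growth or loss.

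Library totals ran from 28565856 to 35777820 counts in TAC KO, from 26288519 to 35945770 in TAC WT and from 27596898 to 35491024 in Sham WT hearts. Both Nron records had 0 counts in all 12 libraries, wild-type ones included, which allows up to 0.0835 to 0.114 counts-per-million units (CPM), so the knockout could not be checked in these files. The 32 genes together took 3067 to 3733 CPM in TAC KO, 3498 to 4199 CPM in TAC WT and 3265 to 3620 CPM in Sham WT libraries. Cardiomyocyte markers took far more, 82180 to 88610 CPM over 10 genes in TAC KO, 79540 to 84480 CPM in TAC WT and 87400 to 97540 CPM in Sham WT libraries. TAC KO replicate 2 was the lowest library of its group for 22 of the 32 genes, and TAC WT replicate 3 the highest of its group for 25. In such bulk libraries fewer endothelial cells and less RNA per endothelial cell cannot be told apart.

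Promoter windows of 250 bases before the RefSeq start (build GRCm38.p6) were matched by symbol for 14 of the 32 genes, and 5 are shown because Erg and Nrp1 were lower in TAC KO than in TAC WT hearts, Cd34 and Ly6c1 were higher in TAC WT than in Sham WT hearts, and Emcn, called in neither comparison, carries the ETS letters as Cd34 does. Each is written 5′ to 3′ on the strand of its gene, and capitals mark CCGGAA or CAGGAA, the letters of an ETS-type site, on either strand. Erg lies at chr16:95586594-95586843 (minus strand), Nrp1 at chr8:128358823-128359072 (plus), Cd34 at chr1:194938571-194938820 (plus), Ly6c1 at chr15:75048838-75049087 (minus) and Emcn at chr3:137340828-137341077 (plus).
Erg: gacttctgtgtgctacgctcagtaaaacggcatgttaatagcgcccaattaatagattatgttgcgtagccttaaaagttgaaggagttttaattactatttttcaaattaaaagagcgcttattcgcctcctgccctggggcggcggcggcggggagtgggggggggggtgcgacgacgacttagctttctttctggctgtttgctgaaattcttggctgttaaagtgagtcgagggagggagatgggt
Nrp1: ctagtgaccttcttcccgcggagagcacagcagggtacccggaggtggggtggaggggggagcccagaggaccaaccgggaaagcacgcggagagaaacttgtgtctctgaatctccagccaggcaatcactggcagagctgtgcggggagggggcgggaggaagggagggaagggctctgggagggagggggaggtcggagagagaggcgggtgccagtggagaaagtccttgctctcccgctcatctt
Cd34: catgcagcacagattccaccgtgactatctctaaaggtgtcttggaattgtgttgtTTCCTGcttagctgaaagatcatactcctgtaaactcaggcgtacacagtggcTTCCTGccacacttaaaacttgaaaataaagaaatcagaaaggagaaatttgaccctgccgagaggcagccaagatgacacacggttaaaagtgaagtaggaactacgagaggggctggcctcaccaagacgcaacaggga
Ly6c1: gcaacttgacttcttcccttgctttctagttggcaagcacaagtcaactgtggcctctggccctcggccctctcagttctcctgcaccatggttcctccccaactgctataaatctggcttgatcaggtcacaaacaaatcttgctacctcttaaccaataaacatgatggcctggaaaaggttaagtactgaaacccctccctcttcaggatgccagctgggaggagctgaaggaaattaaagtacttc
Emcn: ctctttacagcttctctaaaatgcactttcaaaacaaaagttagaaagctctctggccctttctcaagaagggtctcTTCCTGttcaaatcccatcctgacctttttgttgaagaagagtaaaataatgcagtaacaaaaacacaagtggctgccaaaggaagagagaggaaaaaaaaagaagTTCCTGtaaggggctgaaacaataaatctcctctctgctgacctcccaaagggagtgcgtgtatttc
The windows of Cd34 and Emcn hold the ETS letters at 2 places each, and those of Erg, Nrp1 and Ly6c1 at 0. Calcrl, also lower in TAC KO than in TAC WT hearts, has a matched window, not shown, that holds them at 2 places. Of the 14 matched windows 8 hold them (57.1%), against 34.9% of all 27025 RefSeq windows of this length. The SOX letters ACAAT are in 5 of the 14 (35.7%, against 28.2% of all), the KLF letters CACCC in 9 (64.3%, against 51.4%) and the GATA letters AGATAA in 0 (against 10.2%). Some windows with the ETS letters overlap annotated exons on the same strand, by 250 bases in Rasip1, 212 in Tie1, 145 in Calcrl and 75 in Robo4. Those of Emcn and Cd34 overlap exons by 11 and 2 bases. These are letter matches in one window for each gene, and no binding was measured.

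Endothelial genes spanned a wide range of levels. Per kilobase of exon, the levels in Sham WT hearts ran from 139 CPM for Fabp4, a fatty acid carrier, and 112 CPM for Aqp1, a water channel, down to 3.20 CPM for Plvap, the protein of the diaphragms in endothelial openings. Cdh5, the cadherin of endothelial junctions, was next at 73.8 CPM per kilobase, then Eng, a co-receptor for TGF-beta family ligands, at 64.5 CPM per kilobase. The transcription factors lay low except Sox18, at 46.9 CPM per kilobase, against 7.31 CPM for Erg and 4.23 CPM for Sox17. Fabp4 is also made by adipocytes, whose part in its counts was not tested, and the 6 adipocyte markers, of which 2 passed the filter on low counts, together had 1.11 to 7.93 CPM in TAC KO, 1.11 to 2.19 CPM in TAC WT and 0.44 to 4.52 CPM in Sham WT libraries.

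In TAC KO hearts 7 of the 32 endothelial genes were lower than in TAC WT hearts, 1 was higher and 24 were not called. Erg and Fli1 fell most, followed by the receptors S1pr1, Calcrl and Nrp1, the phosphatase Ptprb and the matrix protein Mmrn2. Ramp2, the partner of Calcrl, was the one that rose. Of the 12 junction, surface and lumen genes, 11 had negative log2 fold changes and 0 positive ones, with a median of -0.16; the uncalled ones ran from -0.31 for Cldn5 to 0.00 for Icam2. Genes were called at a Benjamini-Hochberg adjusted p under 0.05 over all 15477 genes in edgeR's quasi-likelihood test. The share called lower among the 32 was 21.9%, against 17.3% of all genes tested, and the share called higher 3.13%, against 15.7%. The median log2 fold change of the 32 was -0.16, and that of all genes was 0.00. The library ranges of the groups were apart, with TAC KO below TAC WT, for 7 of the 32, against 15.2% of all genes, and with TAC KO above for 0, against 13.3%.

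**Figure D1:**
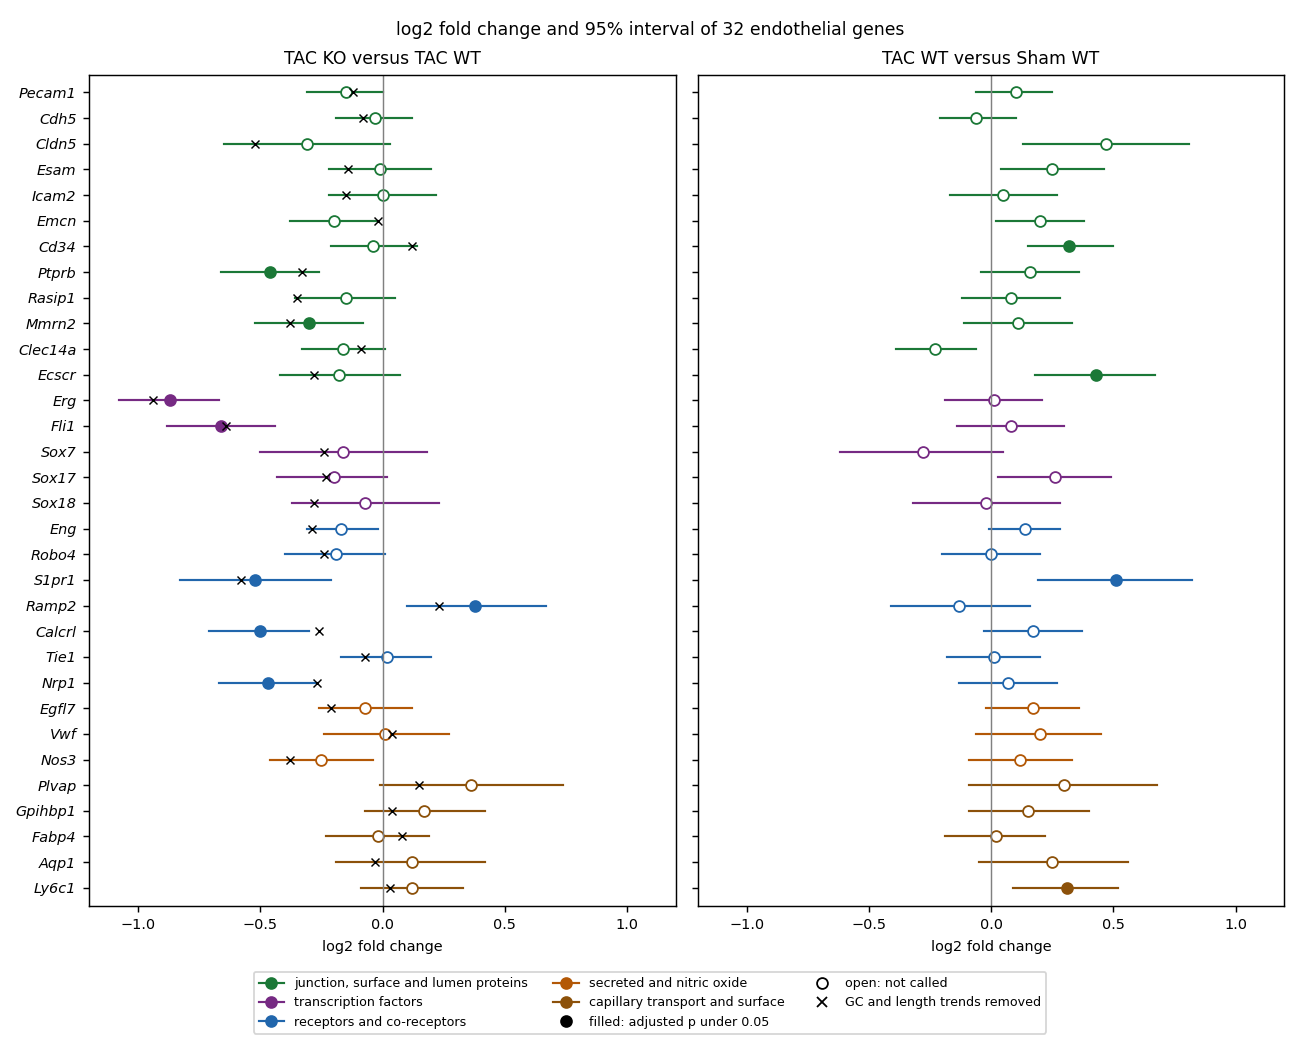
log2 fold change (x axis) with its 95% interval for each of the 32 endothelial genes (rows, coloured by role), in TAC KO versus TAC WT (left) and TAC WT versus Sham WT (right); filled points were called, and crosses give the value with GC and length trends removed. Erg at -0.87 and Fli1 at -0.66 lie furthest to the left in the left panel, while Cdh5 (-0.03) and Tie1 (0.02) lie at 0; in the right panel the 4 filled points all lie to the right.

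Among the transcription factors, Erg, an ETS factor needed to keep endothelial junctions and identity, had 16.7, 13.1, 13.8 and 12.2 CPM in TAC KO, 25.3, 23.4, 29.3 and 24.1 CPM in TAC WT and 24.1, 25.5, 26.4 and 25.3 CPM in Sham WT libraries. All 4 TAC KO libraries lay below all 8 wild-type ones. The log2 fold change to TAC WT was -0.87 (SE 0.10, 95% interval -1.08 to -0.67, edgeR adjusted p = 4.03e-05). Fli1, its close relative in the ETS family, had 18.4, 18.7, 22.9 and 21.0 CPM in TAC KO, 32.5, 28.8, 35.9 and 30.8 CPM in TAC WT and 27.1, 26.2, 33.7 and 34.2 CPM in Sham WT libraries. Here too no TAC KO library reached a wild-type one, and the log2 fold change to TAC WT was -0.66 (SE 0.10, edgeR adjusted p = 0.00048). Both calls were kept without each library in turn, at -0.97 to -0.80 for Erg and -0.73 to -0.60 for Fli1. The 3 SOX factors were not called. Their log2 fold changes were -0.20 for Sox17 (95% interval -0.43 to 0.02), -0.16 for Sox7 (-0.50 to 0.18) and -0.07 for Sox18 (-0.37 to 0.23), and their library ranges overlapped.

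**Figure D2:**
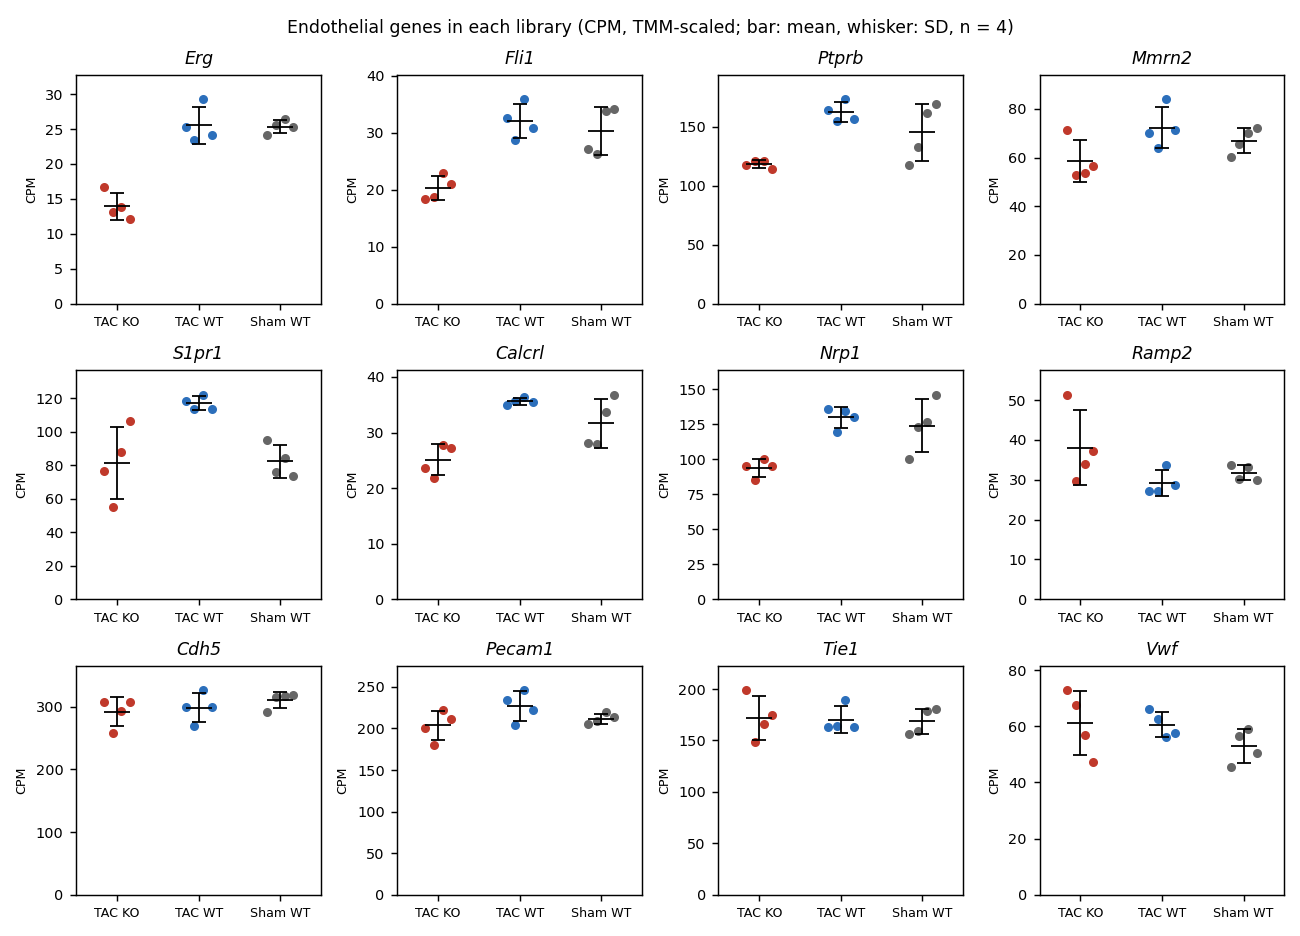
CPM (y axis, from 0) of 12 endothelial genes in each library, with TAC KO, TAC WT and Sham WT from left to right; points are libraries, bars the mean and whiskers the SD (n = 4). The TAC KO points of Erg (12.2 to 16.7 CPM) and Fli1 (18.4 to 22.9 CPM) sit below every wild-type point, while those of Cdh5, Pecam1, Tie1 and Vwf overlap the wild-type points.

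Of the 7 receptors and co-receptors, 3 fell (42.9%) and 1 rose (14.3%), beside 17.3% of all genes lower and 15.7% higher. S1pr1, the receptor for sphingosine 1-phosphate that tightens the endothelial barrier, had 76.8, 55.0, 87.6 and 106.7 CPM in TAC KO, 118, 114, 122 and 114 CPM in TAC WT and 95.2, 76.2, 84.4 and 73.6 CPM in Sham WT libraries. Its TAC KO libraries were spread widely, yet all lay below the TAC WT ones, and they overlapped the Sham WT ones. The log2 fold change to TAC WT was -0.52 (SE 0.15, adjusted p = 0.01455). Nrp1, a co-receptor for VEGF and semaphorins, had 94.8, 84.8, 99.8 and 95.1 CPM in TAC KO, 135.6, 119.5, 134.2 and 129.7 CPM in TAC WT and 100.1, 122.9, 126.2 and 146.0 CPM in Sham WT libraries. The TAC KO values were again below all 8 wild-type ones, the nearest being 99.8 CPM in TAC KO replicate 3 and 100.1 CPM in Sham WT replicate 1. The log2 fold change of Nrp1 to TAC WT was -0.47 (SE 0.09, adjusted p = 0.0021).

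Calcrl and Ramp2 encode the receptor for adrenomedullin and its accessory protein, a peptide that guards vessel integrity, and their log2 fold changes had opposite signs. Calcrl had 23.7, 21.8, 27.7 and 27.3 CPM in TAC KO, 34.9, 35.7, 36.3 and 35.5 CPM in TAC WT and 28.2, 27.9, 33.7 and 36.8 CPM in Sham WT libraries. The TAC KO libraries lay below all wild-type ones, and the log2 fold change to TAC WT was -0.50 (SE 0.10, adjusted p = 0.00151). Ramp2 had 51.4, 29.8, 34.1 and 37.1 CPM in TAC KO, 27.1, 27.1, 33.8 and 28.7 CPM in TAC WT and 33.7, 30.3, 33.3 and 30.0 CPM in Sham WT libraries. TAC KO replicate 1 stood above the rest, and the TAC KO and TAC WT ranges overlapped. The log2 fold change of Ramp2 was 0.38 (SE 0.13, adjusted p = 0.03799), and 0.21 without TAC KO replicate 1 (adjusted p = 0.1175). Its call was also lost without TAC KO replicate 4 and without TAC WT replicates 1, 2 or 4. Ramp2 shares 33.4% of its exon bases with Vps25 on the same strand, which itself had 0.911 ± 0.310 CPM in TAC KO and 0.908 ± 0.236 CPM in TAC WT hearts (SD, n = 4 each).

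The other 3 receptors were not called. Tie1, a receptor kinase that pairs with the angiopoietin receptor, was at 0.02 (95% interval -0.17 to 0.20) and Robo4, a guidance receptor that stabilises vessels, at -0.19 (-0.40 to 0.01). Eng had 227.3 to 274.3 CPM in TAC KO and 274.6 to 305.0 CPM in TAC WT libraries. Those ranges were apart by a narrow gap, and the log2 fold change was -0.17 (SE 0.07, adjusted p = 0.07306). Eng was called lower without TAC KO replicate 4 (-0.21, adjusted p = 0.0457), and Robo4 without TAC WT replicate 1 (-0.27, 0.0441).

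Of the 12 junction, surface and lumen proteins, 2 fell (16.7%) and 0 rose, beside 17.3% of all genes lower and 15.7% higher. Ptprb, the phosphatase that acts on the junction cadherin and on the angiopoietin receptor, had 118, 121, 121 and 114 CPM in TAC KO, 164, 155, 174 and 157 CPM in TAC WT and 118, 133, 162 and 169 CPM in Sham WT libraries. The 4 TAC KO libraries were close together and below the TAC WT ones, while the Sham WT libraries ran across both. The log2 fold change to TAC WT was -0.46 (SE 0.09, adjusted p = 0.00248). Mmrn2, a matrix glycoprotein that binds the surface lectin Clec14a, had 71.4, 53.0, 53.5 and 56.6 CPM in TAC KO, 70.0, 63.9, 84.0 and 71.5 CPM in TAC WT and 60.4, 65.5, 69.9 and 72.1 CPM in Sham WT libraries. TAC KO replicate 1 lay among the TAC WT libraries. The log2 fold change was -0.30 (SE 0.10, adjusted p = 0.03515). The Mmrn2 call was lost in 6 of the 8 fits without 1 library, those without TAC KO replicates 2, 3 or 4 and without TAC WT replicates 1, 3 or 4, at adjusted p of 0.0529 to 0.1051, and in the fit of the compared groups alone.

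The other 10 junction, surface and lumen genes were not called. Cdh5 averaged 291.5 ± 23.0 CPM in TAC KO and 298.4 ± 23.6 CPM in TAC WT hearts (SD, n = 4 each), a log2 fold change of -0.03 (95% interval -0.19 to 0.12). Esam, a junctional adhesion molecule, and Icam2, an adhesion molecule for leukocytes, were at -0.01 and 0.00, and Cd34, a sialomucin of the vessel surface, at -0.04. Pecam1, the adhesion molecule at endothelial contacts, was at -0.15 (95% interval -0.31 to 0.00, adjusted p = 0.1193). The lowest of the uncalled values was that of Cldn5, a tight-junction claudin, at -0.31 (SE 0.16, adjusted p = 0.1471). Emcn, a sialomucin of capillaries and veins, was at -0.20, Ecscr, a surface protein of endothelial migration, at -0.18, Clec14a at -0.16 and Rasip1, a protein of lumen formation, at -0.15, and the ranges of all 4 overlapped between groups. Without a single library, 4 of these 10 were called lower, Pecam1 without TAC WT replicate 2 (-0.20, adjusted p = 0.0453), Cldn5 without TAC WT replicate 4 (-0.44, 0.0389), Emcn without TAC KO replicate 4 (-0.26, 0.0444) and Clec14a without TAC KO replicate 1 (-0.23, 0.0282). With GC and length trends removed, 4 of the 12 were called lower, Cldn5 and Rasip1 beside Ptprb and Mmrn2, against 14.2% of all genes. The median of the 12 was then -0.14. Rasip1 shares 20.4% of its exon bases with Izumo1 on the same strand.

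None of the 3 secreted or nitric oxide genes was called by edgeR at the adjusted threshold, and 1, Nos3, had an unadjusted p under 0.05. Nos3, the endothelial nitric oxide synthase, had 58.5, 54.7, 52.5 and 60.5 CPM in TAC KO and 70.1, 58.4, 80.2 and 60.7 CPM in TAC WT libraries, which overlapped. Its log2 fold change was -0.25 (SE 0.10, adjusted p = 0.05981), and it was called lower with DESeq2, with no filter on low counts with the filter of 1 CPM in 4 libraries, and without TAC WT replicate 2 or 4. Vwf, the clotting factor stored in endothelial granules, was at 0.01 (95% interval -0.24 to 0.27), and Egfl7, a secreted protein of vessel tube formation, at -0.07 (-0.26 to 0.12). Nos3 shares 25.2% of its exon bases with an antisense gene, and how strand was treated when reads were assigned is not stated for these files.

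None of the 5 capillary transport and surface genes was called by edgeR, DESeq2 or limma voom, and 0 had an unadjusted p under 0.05. Plvap had the widest interval, -0.01 to 0.74 around 0.36, at only 10.1 ± 2.19 CPM in TAC KO and 7.86 ± 1.06 CPM in TAC WT hearts (SD, n = 4 each). Gpihbp1, which carries lipoprotein lipase to the capillary lumen, was at 0.17, Aqp1 at 0.12, the surface antigen Ly6c1 at 0.12 and Fabp4 at -0.02. Without TAC KO replicate 2, Gpihbp1 was called higher at 0.29 (adjusted p = 0.0151) and Ly6c1 at 0.22 (0.0409), and without TAC WT replicate 3 Aqp1 was called higher at 0.34 (0.00792). The values of Fabp4 were 485 to 701 CPM in TAC KO and 613.5 to 665.5 CPM in TAC WT libraries.

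Counts were also set against those of Cdh5 in the same library, a gene whose own level differed little between the TAC groups. There were 5.43, 5.08, 4.70 and 3.97 Erg counts for every 100 Cdh5 counts in TAC KO, 8.44, 8.72, 8.98 and 8.05 in TAC WT and 8.28, 8.11, 8.32 and 7.96 in Sham WT libraries. The 8 wild-type values lay within 7.96 to 8.98, and no TAC KO value came near them. For Fli1 the ratio was 5.96 to 7.81 in TAC KO, 10.3 to 11.0 in TAC WT and 8.32 to 10.7 in Sham WT libraries. Nrp1 had 30.8 to 34.0 counts in TAC KO, 41.1 to 45.3 in TAC WT and 34.4 to 45.9 in Sham WT libraries, and Calcrl 7.71 to 9.44, 11.1 to 13.3 and 8.86 to 11.6 in that same order of groups. By contrast Tie1, with 56.5 to 64.7 counts in TAC KO, 54.4 to 61.0 in TAC WT and 50.6 to 56.6 in Sham WT libraries, overlapped between the TAC groups. Pecam1 overlapped too, at 65.0 to 75.7 counts in TAC KO, 74.3 to 78.2 in TAC WT and 66.4 to 70.6 in Sham WT libraries. These ratios were not corrected for the GC and length trends given below. The parts of the log2 fold change to TAC WT that followed them were -0.25 for Calcrl, -0.20 for Nrp1 and 0.05 for Cdh5. For Erg and Fli1 they were 0.06 and -0.02.

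**Figure D3:**
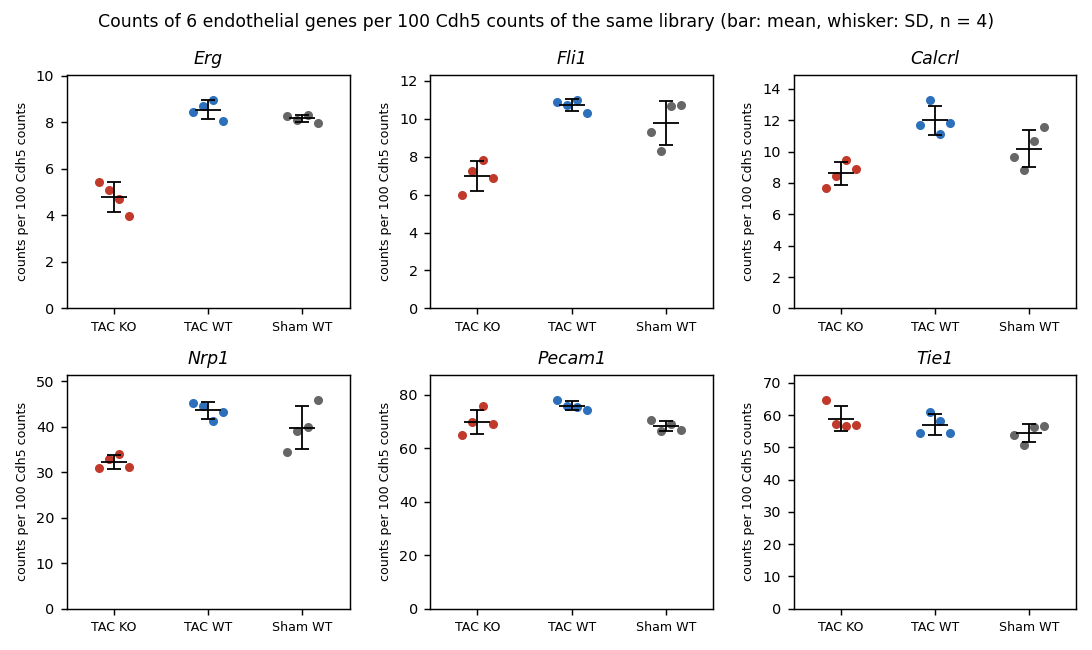
Counts of 6 endothelial genes per 100 Cdh5 counts of the same library (y axis, from 0) in TAC KO, TAC WT and Sham WT libraries from left to right; points are libraries, bars the mean and whiskers the SD (n = 4). Erg ratios sit at 3.97 to 5.43 in TAC KO and 7.96 to 8.98 in the 8 wild-type libraries, and Tie1 ratios overlap between TAC KO and TAC WT. The ratios are not corrected for GC and length trends.

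TAC KO libraries also differed from the others in how their counts followed GC content and transcript length. The median level of the highest GC quintile minus the lowest was 0.105 to 0.434 in TAC KO, -0.15 to -0.062 in TAC WT and -0.121 to -0.042 in Sham WT libraries on the log2 scale. For length, the top quintile minus the bottom one was -0.247 to -0.140, -0.036 to 0.171 and 0.011 to 0.134 in the same order. Calcrl, at percentile 2.4 of GC content among tested genes, and Nrp1, at percentile 12.6, were the called genes most exposed to this, with trend parts of -0.25 and -0.20. With both trends removed as offsets, 13.2% of all genes were called higher and 14.2% lower, and of the 32 endothelial genes 0 were higher and 10 lower, with a median of -0.22. Erg was at -0.94 (adjusted p = 2.42e-05), Fli1 at -0.64 (0.000582), S1pr1 at -0.58 (0.0101), Mmrn2 at -0.38 (0.00953), Ptprb at -0.33 (0.0144) and Calcrl at -0.26 (0.0472). Nrp1, at -0.27 (adjusted p = 0.05027), and Ramp2, at 0.23 (0.1683), were no longer called. GC-rich Cldn5 (-0.52, adjusted p = 0.0345) and Rasip1 (-0.35, 0.00959) were called lower then, and so were Eng (-0.29, 0.00638) and Nos3 (-0.38, 0.0152). Whether the trends are of the libraries or of the hearts was not tested.

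**Figure D4:**
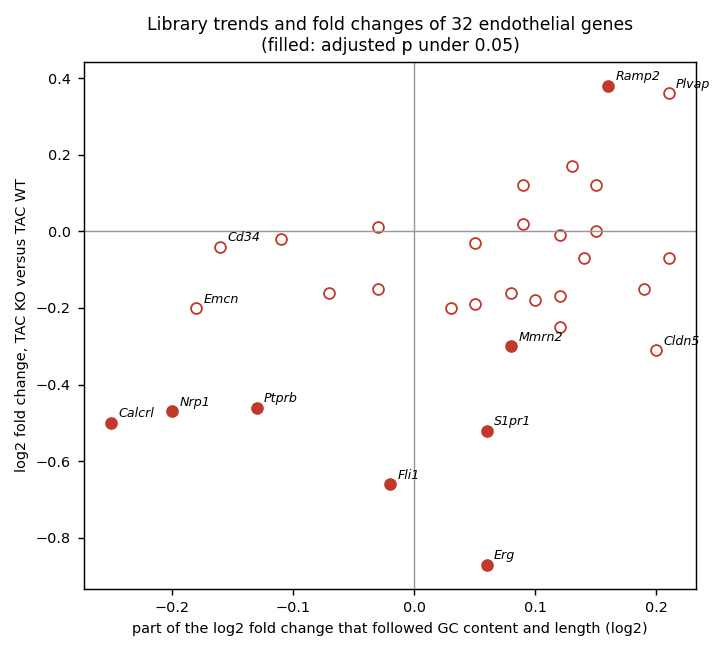
log2 fold change of each of the 32 endothelial genes in TAC KO versus TAC WT (y axis) against the part of it that followed GC content and length (x axis, log2); filled points were called. Erg and Fli1, with trend parts of 0.06 and -0.02, lie low near the middle, while Calcrl (-0.25) and Nrp1 (-0.20) lie at the left edge and Plvap (0.21) at the right.

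Genes of a broader endothelial signalling list, which holds transcription factors beside ligands and receptors, were called lower in TAC KO hearts as well. The list was chosen with earlier results of these data known, so its shares are a description only. Of 34 such genes, 17 fell and 2 rose, beside 17.3% of all genes lower and 15.7% higher, with a median log2 fold change of -0.30. With GC and length trends removed 21 fell and 1 rose, beside 14.2% and 13.2% of all genes. Ets1, another ETS factor of endothelial cells, was at -0.74 (SE 0.09, adjusted p = 7.30e-05) with 68.7 to 74.9 CPM in TAC KO, 104.7 to 137.0 CPM in TAC WT and 98.3 to 126.2 CPM in Sham WT libraries. Flt1, a VEGF receptor, was at -0.75 (SE 0.09, adjusted p = 8.68e-05) and Efnb2, the ephrin of arterial cells, at -0.63 (SE 0.08, 7.81e-05). Mef2c, a transcription factor of endothelial and muscle cells, was at -0.53 (SE 0.06, 5.75e-05), or -0.25 with the trends removed. The ligand Vegfa, made largely by cardiomyocytes in the heart, was at -0.83 (SE 0.11, 0.000147) with 270 to 386 CPM in TAC KO and 525 to 694 CPM in TAC WT libraries. Angpt1, the ligand of the receptor Tek, was at 1.26 (SE 0.18, 0.000258), with 15.5 to 22.5 CPM in TAC KO, 6.24 to 11.5 CPM in TAC WT and 26.7 to 39.7 CPM in Sham WT libraries.

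Markers of single vessel segments were called in both directions, beside 17.3% of all genes lower and 15.7% higher. With GC and length trends removed the higher calls of the arterial, capillary and venous lists became 0 each and the lower arterial ones 5. The endocardial list then had 1 call each way and the lymphatic list 2 lower ones, beside 14.2% of all genes lower and 13.2% higher. Of 9 arterial genes 3 fell (Efnb2, Jag1 at -0.60 and Sema3g at -0.50) and 1 rose (Gja4 at 0.35), with a summed level of 140 to 165.5 CPM in TAC KO, 188 to 218.5 CPM in TAC WT and 167 to 207 CPM in Sham WT libraries. Of 7 capillary genes 2 fell (the VEGF receptor Kdr at -0.62 and the homeobox factor Meox2 at -0.32) and 1 rose (Car4, a carbonic anhydrase of capillaries, at 0.44). Of 8 venous and activation genes, 7 were tested, 1 fell (Nr2f2, the venous fate factor, at -0.40) and 1 rose (Lrg1 at 0.74). Of 6 endocardial genes 5 were tested, 1 fell (Npr3 at -0.96) and 1 rose (Cytl1 at 0.88), and Hapln1 had 0 counts in every TAC KO and every TAC WT library. Of 8 lymphatic genes 2 fell (Flt4 at -0.52 and Mmrn1 at -0.37) and 0 rose. The arterial Efnb2, Hey1 and Dll4, the capillary Kdr, the venous Ephb4 and the lymphatic Flt4 are also among the 34 signalling genes.

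Markers of other cells moved with the same groups, and their part in the endothelial values was not tested. Over all genes, 15.7% were called higher and 17.3% lower. Of 10 macrophage markers 5 were higher in TAC KO hearts (C1qb at 0.64, C1qc at 0.53, Cd68 at 0.69 and C1qa at 0.46 by lowest p) and 0 lower, and their sum was 304 to 411 CPM in TAC KO, 212 to 309 CPM in TAC WT and 225 to 277 CPM in Sham WT libraries. Of 11 smooth muscle and pericyte markers 4 were higher (Vtn at 0.85, Cnn1 at 1.18, Tagln at 0.81 and Kcnj8 at 0.30) and 1 lower (Rgs5 at -0.35). With GC and length trends removed, 3 of the 11 were higher and 0 lower. Their sums were 1360 to 1557 CPM, 1372 to 1729 CPM and 1516 to 1734 CPM in that order of groups. Of 10 fibroblast markers 3 were higher and 1 lower (Ddr2 at -0.48), with sums of 1349 to 1917 CPM, 1161 to 1630 CPM and 955 to 1113 CPM in the same order. Of 10 cardiomyocyte markers 3 were higher and 0 lower. Erg and Fli1 are also made by megakaryocytes, and of the 5 of 6 platelet and megakaryocyte markers that were tested 1 fell (Gp6 at -1.50), with sums of 20.5 to 47.7 CPM in TAC KO, 34.8 to 99.4 CPM in TAC WT and 54.8 to 80.1 CPM in Sham WT libraries. The median log2 fold change of the 5 was -0.82, and 2 had an unadjusted p under 0.05 in edgeR. Against Sham WT hearts the median was -1.05 and 2 of the 5 were called lower, beside 14.8% of all genes. Their part in the Erg and Fli1 values was not tested. No marker of erythroid cells (6 tested), of adipocytes (2 of 6 tested) or of the cell cycle (8 tested) was called by edgeR, by DESeq2 or by limma voom between TAC KO and TAC WT hearts, and 0 of them had an unadjusted p under 0.05 in edgeR.

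After constriction in wild-type mice, 4 of the 32 endothelial genes were higher than after sham surgery and 0 were lower. They were the receptor S1pr1, the surface proteins Ecscr and Cd34 and the capillary antigen Ly6c1, while the transcription factors Erg and Fli1 were at 0.01 and 0.08. The share called higher was 12.5%, against 9.67% of all genes, and 10% of all genes were called lower. DESeq2 called 1 lower, Clec14a, and limma voom 2, Clec14a and Sox7 (-0.35, adjusted p = 0.0417). Esam was called higher with limma voom (0.25, adjusted p = 0.0372). In the compared groups alone Esam (0.25, 0.0374) and Sox17 (0.26, 0.0242) were called higher. At an unadjusted p under 0.05 in edgeR there were 9 of the 32, 1 of them, Clec14a, lower, and the median log2 fold change was 0.13, against 0.00 over all genes. The TAC WT libraries lay wholly above the Sham WT ones for 3 of the 32 (S1pr1, Ly6c1 and Sox17), against 12% of all genes, and wholly below for 0, against 12.7%. GC and length trends hardly entered, with trend parts of -0.03 to 0.04 over the 32 genes. This comparison and the one above share the 4 TAC WT libraries, so a gene that was high in those libraries differs in both.

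S1pr1, whose 118, 114, 122 and 114 CPM in TAC WT stood above the 73.6 to 95.2 CPM of Sham WT libraries, had a log2 fold change of 0.51 (SE 0.15, adjusted p = 0.02464). Ecscr had 19.96, 15.9, 20.8 and 22.5 CPM in TAC WT and 13.9, 13.9, 17.6 and 13.3 CPM in Sham WT libraries. TAC WT replicate 2 fell among the sham libraries and Sham WT replicate 3 among the TAC ones, and the log2 fold change was 0.43 (SE 0.11, adjusted p = 0.01681). Cd34 had 188.5, 145.6, 178.9 and 177.5 CPM in TAC WT and 147.0, 135.9, 134.1 and 134.2 CPM in Sham WT libraries. Its ranges touched through TAC WT replicate 2, below Sham WT replicate 1, and the log2 fold change was 0.32 (SE 0.08, adjusted p = 0.01372).

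Ly6c1 had 100.5, 101.5, 107.3 and 107.1 CPM in TAC WT and 89.2, 76.3, 91.7 and 79.4 CPM in Sham WT libraries, all the TAC ones higher, with a log2 fold change of 0.31 (SE 0.10, adjusted p = 0.0418). It has a near-identical copy, Ly6c2, with 98.3% identity over 595 of 844 transcript bases, so its counts are uncertain. Only Cd34 of the 4 kept its call without each library in turn. S1pr1 lost it without Sham WT replicates 2, 3 or 4 or TAC WT replicates 1 or 3 (adjusted p up to 0.0714), Ecscr without Sham WT replicates 1, 2 or 4 or TAC WT replicate 4 (up to 0.0546), and Ly6c1 without Sham WT replicates 1, 2 or 4 or TAC WT replicates 1, 3 or 4 (up to 0.1095) and with 1 surrogate variable.

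**Figure D5:**
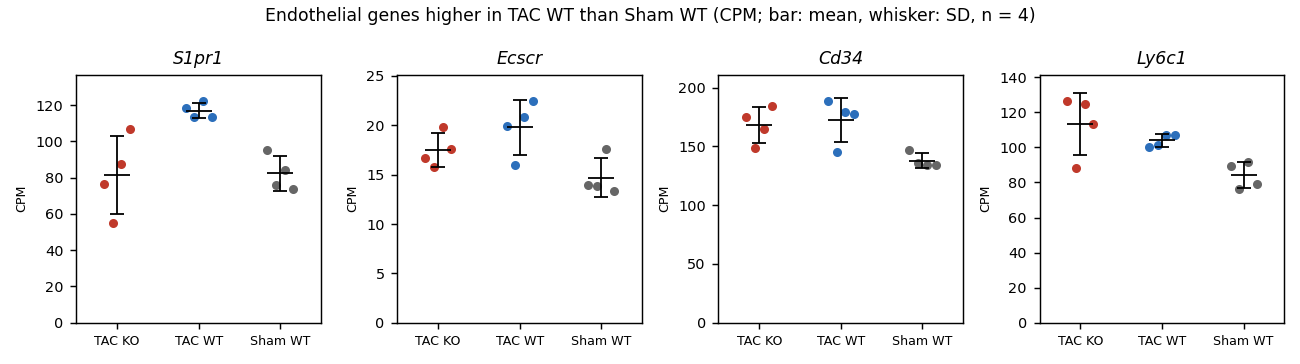
CPM (y axis, from 0) of the 4 endothelial genes that were higher in TAC WT than in Sham WT hearts, with TAC KO, TAC WT and Sham WT libraries from left to right; points are libraries, bars the mean and whiskers the SD (n = 4). S1pr1 in TAC KO (55.0 to 106.7 CPM) lies around the Sham WT level (73.6 to 95.2 CPM), while Cd34 in TAC KO (149 to 184.5 CPM) lies above the Sham WT libraries (134 to 147.0 CPM).

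Just short of the threshold stood Cldn5, with 52.5, 38.4, 59.1 and 33.4 CPM in TAC WT and 28.9, 38.2, 35.3 and 29.8 CPM in Sham WT libraries, at 0.47 (SE 0.16, adjusted p = 0.05026). It was called higher with DESeq2 (adjusted p = 0.0223), with limma voom (0.0234), with no filter on low counts (0.00583), with the filter of 1 CPM in 4 libraries (0.0463) and with 1 surrogate variable (0.0218), and without Sham WT replicate 2 or TAC WT replicates 2 or 4. TAC WT replicates 1 and 3 stood clearly above all Sham WT libraries, and replicate 4 lay among them. Replicate 2 was only just above the highest of them (38.35 CPM against 38.15 CPM in Sham WT replicate 2). Clec14a lay on the other side, at -0.23 (SE 0.08, adjusted p = 0.05902), with 25.1 to 28.2 CPM in TAC WT and 27.9 to 33.4 CPM in Sham WT libraries, and it was called lower with DESeq2 (0.0489), with limma voom (0.0159), in the compared groups alone (0.0333) and without Sham WT replicate 1 or TAC WT replicate 2. Cdh5, Erg, Robo4, Tie1, Sox18, Fabp4 and Icam2 were between -0.06 and 0.05.

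Of the 34 endothelial signalling genes 7 were higher in TAC WT than in Sham WT hearts and 3 lower, beside 9.67% of all genes higher and 10% lower, with a median of 0.09. Angpt1 was at -2.13 (SE 0.18, adjusted p = 8.1e-06), Klf2, a flow-induced transcription factor, at 0.65, Ednrb, an endothelin receptor, at 0.72 and Vegfa at 0.47. The Vegfa values were 270 to 386 CPM in TAC KO, 525 to 694 CPM in TAC WT and 412 to 491 CPM in Sham WT libraries, and the 3 ranges did not overlap.

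Between TAC KO and Sham WT hearts, which differ in both surgery and genotype, 7 of the 32 endothelial genes were lower and 4 higher. The shares were 21.9% lower, against 14.8% of all genes, and 12.5% higher, against 12.8%. Erg (-0.86, adjusted p = 6.02e-05), Fli1 (-0.58, 0.00131), Nrp1 (-0.40, 0.00659), Calcrl (-0.33, 0.0198) and Ptprb (-0.30, 0.0297) were lower here as against TAC WT hearts. Calcrl lost this call without TAC KO replicates 1 or 2 or Sham WT replicates 3 or 4 (adjusted p up to 0.0740), and Ptprb without TAC KO replicates 1 or 4 or Sham WT replicates 3 or 4 (up to 0.1072). Clec14a (-0.39, adjusted p = 0.0030) and Sox7 (-0.45, 0.0486) were called here and not against TAC WT hearts, and the TAC KO libraries are shared by both comparisons. Clec14a had 27.1, 21.6, 22.0 and 23.6 CPM in TAC KO and 27.9, 30.4, 31.7 and 33.4 CPM in Sham WT libraries, with no overlap. The Sox7 call was lost in 7 of the 8 fits without 1 library, all but that without TAC KO replicate 1.

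Those higher in TAC KO than in Sham WT hearts were Plvap at 0.66 (SE 0.18, adjusted p = 0.0134), Ly6c1 at 0.43 (SE 0.10, 0.0063), Gpihbp1 at 0.32 (SE 0.11, 0.0479) and Cd34 at 0.29 (SE 0.08, 0.0200), so that 3 of the 4 came from the 5 capillary transport and surface genes. Plvap had 11.3, 7.81, 12.5 and 8.73 CPM in TAC KO and 7.85, 6.99, 6.23 and 4.36 CPM in Sham WT libraries, which overlapped. Aqp1 was not called, at 0.37 (edgeR adjusted p = 0.06868), though its TAC KO libraries lay above all Sham WT ones. It was called higher with DESeq2, with limma voom, with no filter on low counts and in the compared groups alone. With GC and length trends removed Aqp1 was at 0.22 (adjusted p = 0.2778). limma voom also called Esam higher and Mmrn2 lower. S1pr1 was at -0.01 (95% interval -0.33 to 0.30). With GC and length trends removed, 2 were higher (Cd34 and Ly6c1) and 4 lower (Clec14a, Erg, Fli1 and Sox7). For this comparison no share of all genes was taken with the trends removed, so these counts have no background beside them. Calcrl was at -0.07 with the trends removed (adjusted p = 0.6328). Gpihbp1 lost its call in 7 of the 8 fits without 1 library, all but that without TAC KO replicate 2, and Cd34 lost its call without TAC KO replicate 4 or Sham WT replicates 3 or 4 (adjusted p up to 0.0625).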

How the data were processed

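Raw whole-number read counts per gene were deposited by the authors, 1 file for each of 12 heart libraries made from 250 ng of RNA, per the labels' protocols. The build was GRCm38, and the tools were STAR, StringTie 1.3.5, featureCounts 1.6.4, DESeq2, Trim Galore 0.5.0, bcl2fastq, MultiQC 1.7 and FastQC 0.11.8, per the submitters' processing notes, with no role, strand option or annotation release stated. Identifiers were matched without version to GENCODE M21.

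All libraries entered 1 edgeR 4.0.16 quasi-likelihood fit in R 4.3.3 (TMM scaling, filterByExpr, 15477 genes tested), checked on simulated data. Genes were called at a Benjamini-Hochberg adjusted p under 0.05. CPM used TMM-scaled library sizes, and fold changes are log2. Limits for 0 counts are 3 counts, and cover counting error only. Offsets for GC content and length came from natural splines (5 degrees of freedom) in each library. Alternatives were DESeq2 1.42.0, limma 3.58.1 (voom), RLE scaling, other filters, the compared groups alone, 1 surrogate variable (sva 3.50.0) and leaving out each library. Near-identical copies were searched with minimap2 2.31-r1302.

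The 32 genes and 14 marker lists (endothelial signalling, capillary, arterial, venous, endocardial, lymphatic, cardiomyocyte, fibroblast, smooth muscle and pericyte, macrophage, adipocyte, erythroid, platelet and cell cycle) were chosen with earlier results of these data known. Values of every library are given for members called in TAC KO versus TAC WT or TAC WT versus Sham WT, and up to 4 called genes of smallest p are named from each list. Other genes named with values, such as Vegfa and Angpt1 in TAC KO hearts, Nos3, Cldn5, Clec14a and Plvap with single libraries, were chosen after their values were seen. Replicates were numbered in accession order, and the labels give no pairing.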

Additional observations from a re-analysis of the deposited data

Results flagged for a closer look

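In 96 gene-by-group sets of 4 libraries, 5 had a library far from the other 3, and chance gives about 1 in 20, or 4.8. Esam was lowest in TAC KO replicate 2, at 76.4 CPM, against 102.1 to 106.3 CPM in the other TAC KO libraries, and this library was also the lowest of its group for 22 of the 32 genes. Tie1 was highest in TAC WT replicate 3, at 189.8 CPM, against 163.0 to 163.8 CPM in the other TAC WT libraries, and this library was the highest of its group for 25 of the 32 genes. In Sham WT replicate 1, Cdh5 was lowest at 291.1 CPM, against 314.7 to 318.3 CPM in the other Sham WT libraries, and Cd34 was highest at 147.0 CPM, against 134.1 to 135.9 CPM. Ecscr was highest in Sham WT replicate 3, at 17.6 CPM, against 13.3 to 13.9 CPM.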

How the results depend on the processing

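Counts of all genes called stayed within 1.5 times of 5110 (TAC KO versus TAC WT), 3051 (TAC WT versus Sham WT) and 4273 (TAC KO versus Sham WT) under every alternative run, and so did the 7 endothelial genes lower in TAC KO than TAC WT. The 1 endothelial gene higher there became 0 with GC and length trends removed and 0 in the compared groups alone, and 0 to 3 without single libraries (3 without TAC KO replicate 2, 2 without TAC WT replicate 3). For TAC WT versus Sham WT, the 4 higher became 1 to 6 without single libraries, and the 0 lower became 1 with DESeq2, 2 with limma voom, 1 in the compared groups alone and 0 to 1 without single libraries. For TAC KO versus Sham WT, with trends removed the 4 higher became 2 and the 7 lower 4, and without single libraries 2 to 6 were higher and 4 to 6 lower. Over the 23 called gene results, 171 of 184 refits kept the call and 13 lost it, and of 184 refits without a library 133 kept it and 51 lost it, and 0 changed direction. Of 1168 refits of the 73 results not called, 90 changed sign without a call and 49 gained a call in the same direction. No paired analysis was possible because the labels give no replicate numbers. With 4 libraries a group and a common biological coefficient of variation of 0.113, intervals of genes such as Plvap (7.86 ± 1.06 CPM in TAC WT hearts) stayed wide.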

Other observations

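In wild-type hearts, markers of other cells differed between TAC and sham surgery, beside 9.67% of all genes called higher and 10% lower. Of 10 fibroblast markers 4 were higher in TAC WT than in Sham WT hearts, the collagens Col1a1 (0.78), Col1a2 (0.76) and Col3a1 (0.78) and the matrix protein Lum (0.75), and Scara5 was lower (-1.28), by edgeR's test over all genes. Their summed level was 1161 to 1630 CPM in TAC WT and 955 to 1113 CPM in Sham WT libraries. Of 10 cardiomyocyte markers 3 were lower (Pln at -0.47, Tnni3 at -0.36 and Myh6 at -0.30) and 0 higher. Among mural markers Cspg4, a proteoglycan of pericytes, was higher (0.75) and Abcc9, a channel subunit, lower (-0.54). Among genes on the vessel segment lists Lpl, the lipase that acts at the capillary wall, was lower (-0.39), and which cells made it was not tested. Icam1 was higher (0.36), 1 of 7 venous and activation genes tested. Of 5 endocardial genes tested, Npr3 was higher (0.79) and Tmem108 lower (-0.89). Of 8 lymphatic genes edgeR called 1, the factor Foxc2, higher (0.81). Before adjustment 6 of these 8 had a p under 0.05 in edgeR, and their median was 0.24. DESeq2 called 2 of them and limma voom 4. No arterial, macrophage, adipocyte, erythroid or platelet marker was called by edgeR, though 2 macrophage markers and 1 arterial marker had an unadjusted p under 0.05 and DESeq2 and limma voom each called 1 macrophage marker. Of the 8 cell cycle genes 1, Cenpf, was lower (-2.50), with 4.75 to 10.3 CPM in TAC WT and 28.0 to 51.2 CPM in Sham WT libraries. None was called higher, yet the median log2 fold change of the 8 was 0.51, opposite in sign to that of Cenpf. In edgeR 2 of the 8 had an unadjusted p under 0.05.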
